A study of Mus musculus with 7 samples.

Results

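The cytosolic ribosomal protein genes of the mouse adrenal gland were followed from late fetal life to adulthood. They were taken as every row of the deposited expression table whose gene symbol is a standard cytosolic ribosomal protein name (Rps or Rpl with a number and at most an a or x, Rplp0 to Rplp2, or Rpsa). The rule found 76 genes among the 35976 symbols of the table, 30 of the small ribosomal subunit and 46 of the large subunit. Rps3a1, Fau and Rack1, which encode other proteins of the same ribosome under names that the rule does not take, are given beside them. A gene was tested where its mean over the libraries reached 10 normalized counts, and all 76 did.

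RNA was sequenced from whole adrenal glands. The mice were of the inbred strain C57BL/6J. One pool of glands gave 1 library per group. The groups were embryos at E18.5, shortly before birth (40 glands, sex not determined), males at P1, the first postnatal day (16 glands), females at P1 (22 glands), males and females at 2 weeks (6 glands each), and males and females at 12 weeks (4 glands each). No group carried a treatment or an engineered allele in the labels. With 1 library per group there was no replicate error, and p-values came only from a model of the 6 postnatal libraries in which age and sex effects add up (2 residual degrees of freedom). The error behind each p-value has more than the gene's own part, which is how far the 2 sexes disagree on an age difference, or the 3 ages on a sex difference. That part is joined with a spread borrowed from the other genes tested, by level.

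Each cytosolic ribosome holds 1 copy of nearly every ribosomal protein, so cells must make these proteins in matched amounts. Their mRNAs are abundant and short, and most begin with a tract of pyrimidines (C or T) at the 5′ end, the 5′ terminal oligopyrimidine or TOP motif. Through this motif the kinase mTOR and the RNA-binding protein Larp1 control their translation and storage, so the level of the mRNA and the rate of protein synthesis can part. Mitochondria have a ribosome of their own, whose proteins are encoded by a separate set of nuclear genes.

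The starts of genes that passed the test in an age comparison (below) are shown because this is where the TOP tract lies. Each stretch runs from 45 bases before the listed RefSeq start to 15 bases from that start on (build GRCm38.p6, 5′ to 3′ along the gene). Capitals mark unbroken runs of at least 6 C or T.
Rps27 (chr3:90213634-90213693, minus strand): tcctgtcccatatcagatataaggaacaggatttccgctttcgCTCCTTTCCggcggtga
Rpl22 (chr4:152324391-152324450, plus strand): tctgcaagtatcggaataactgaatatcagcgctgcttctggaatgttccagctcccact
Rpl28 (chr7:4792920-4792979, plus strand): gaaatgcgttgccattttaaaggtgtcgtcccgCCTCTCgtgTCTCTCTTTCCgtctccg
Rpsa (chr9:120127721-120127780, plus strand): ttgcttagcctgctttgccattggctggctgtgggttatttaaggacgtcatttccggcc
Rps26 (chr10:128626492-128626551, minus strand): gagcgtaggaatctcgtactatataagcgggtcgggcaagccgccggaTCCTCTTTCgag
Rps16 (chr7:28350644-28350703, plus strand): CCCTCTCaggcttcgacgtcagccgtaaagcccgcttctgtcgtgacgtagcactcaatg
Rps27 and Rpl22 were higher at 12 weeks, and the other 4 were lower at 12 weeks than at P1. Rps27 and Rpl28 had a C followed by at least 4 C or T at the listed start itself, while Rps26 had its run a few bases further on. RefSeq starts are annotation, and no file here maps the starts used in these glands.

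The promoter table held 56 of the 76 genes, with a window from 250 bases before to 50 bases after each listed start. A gene was counted where any of its windows held the motif, so genes with more listed starts had more chances. The letters CGGAAGT (either strand), the core of sites for ETS factors, were in 20 of the 56 (35.7%), against 7.2% of all 27025 genes in the promoter table. CTTTCC on the gene's strand within 50 bases of the start was in 18 (32.1%), against 5.43% of all. A C at the listed start followed by at least 4 C or T was in 13 (23.2%), against 3.01% of all, and TATAAA (either strand) was in 6 (10.7%), against 15.7%. AAGATGGC (either strand), the core of the YY1 site, was in Rpl13a, Rpl22, Rpl35a, Rps15a and Rps27 (8.93%, against 3.19% of all). From 2 weeks to 12 weeks the fitted log2 difference had a median of 0.61 in these 5 genes and 0.19 in the other 51 genes of the promoter table. Of these 5, Rpl22 and Rps27 are members called higher in this step (below), and the contrast was not tested. For each of the other 4 motifs the medians of genes with and without it lay between 0.195 and 0.215. These shares describe letters in a window, and CTTTCC overlaps the pyrimidine tract.

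The members lie on 19 chromosomes, with 14 on chromosome 7 and 4 on the X chromosome (Rpl10, Rpl36a, Rpl39 and Rps4x). Ribosomal protein genes have many processed copies in the genome. For 60 of the 76 members, at least 1 annotated pseudogene transcript matched the mRNA at 98% identity or more over at least 200 nt, with a maximum of 15 such pseudogenes for Rpl21. Another annotated gene overlapped 17 members. How the authors' counting treated reads that fit both copies, or either strand, is not given in the sources used here, so the absolute level of such a gene is uncertain.

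Some facts about the libraries bear on every value. Total reads in genes ranged from 15184210 to 23551289. All 9 markers of adrenal cortex (such as Star and Cyp11a1) and all 7 of chromaffin cells (such as Th and Chga) had reads in every library, with summed normalized counts from 258108 to 1139130 and from 41489 to 124941. Markers of neighbouring tissues were high before 2 weeks: the 7 liver markers summed to between 258424 and 377234 at E18.5 and P1, between 12925 and 33645 at 2 weeks, and between 417 and 433 at 12 weeks. The 8 skeletal muscle markers summed to between 39836 and 147130 in the first 3 libraries and to between 76.9 and 5515 later. The library labelled P1 female went against its label in part: 4 Y-linked genes (Ddx3y, Eif2s3y, Kdm5d and Uty) summed to 1273 normalized counts there, against 6135 in P1 males and 4.41 and 2.26 in females at 2 and 12 weeks. Xist, which silences 1 X chromosome in female cells, was at 8103 in the same library and at 22.1 in P1 males. In pooled whole glands, fewer cells of a type and less RNA per cell cannot be told apart.

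The 76 genes together took between 1.92% and 2.63% of the reads in each gland pool. Their share of all reads in genes was 2.35% at E18.5, 2.63% in P1 males, 2.23% in the library labelled P1 female, 1.97% in 2-week males, 2.01% in 2-week females, 2.19% in 12-week males and 1.92% in 12-week females. The highest share, in P1 males, had an exact binomial 95% interval of 2.62 to 2.63%, and the lowest, in 12-week females, one of 1.91 to 1.92%. Such intervals hold counting error alone, as reads were not tied to single molecules by identifiers, and it was small against the spread between libraries. Large subunit genes took 1.499 to 1.70 times the reads of small subunit genes, with the highest ratio in the library labelled P1 female.

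**Figure D1:**
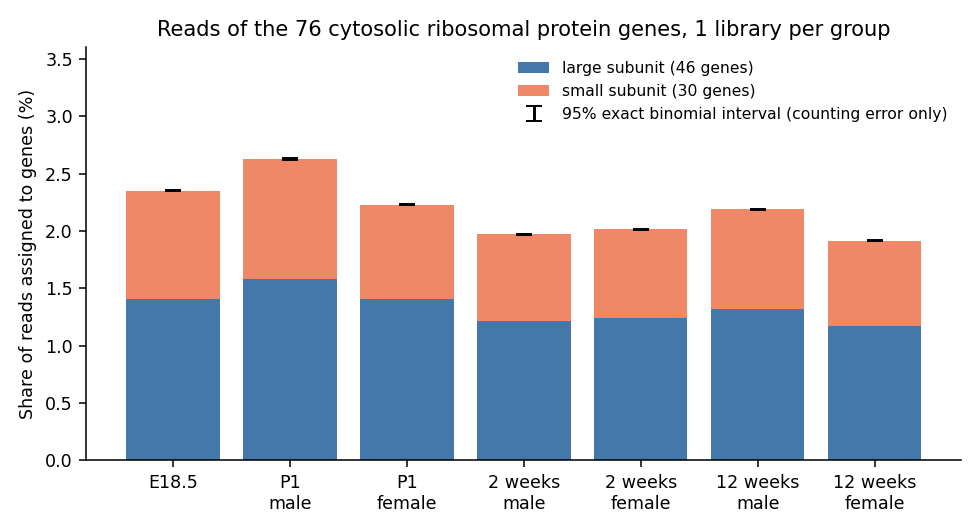
Share of all reads in genes (y axis, %) taken by the 76 cytosolic ribosomal protein genes in each library (x axis), split into large subunit (blue) and small subunit (orange) genes, with the 95% exact binomial interval of the sum. P1 males stood highest at 2.63%, and the 2-week libraries and 12-week females lowest at 1.92 to 2.01%.

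Single members differed widely in level although the ribosome needs them in equal number. Mean normalized counts had a median of 4828 over the 76 genes. Rpsa, which sits near the mRNA exit of the small subunit, was highest with a mean of 18124.5, followed by Rpl4 (17849), which lines the tunnel for the growing peptide, Rps24 (16442) and Rpl19 (13922). Rps16, whose tail reaches the tRNA in the small subunit, was lowest with 144, far under the next lowest members, Rpl36 (1064), Rpl39 (1593) and Rps10 (1697). Divided by the length of the annotated transcript, the mean level had a median of 6681 normalized counts per kb. Rpl32 (20030.2 per kb), Rpl19 (18538 per kb) and Rps27 (18144.0 per kb) led on this scale, and Rps16 (130.03 per kb) and Rps20 (893 per kb) came last, the latter with a transcript model of 3706 nt.

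Rps16 stood apart in level and in range. Its normalized count was 120 at E18.5, 135 in P1 males, 395 for the library labelled P1 female, 91.6 and 110 in 2-week males and females, and 53.1 and 104 in 12-week males and females. The highest library held 7.44 times the lowest. One annotated pseudogene transcript matched the Rps16 mRNA at 100% identity over 200 nt or more. Near-identical copies were found for 60 of the 76 members, and all others of these had higher means, such as Rpl21 with 15 copies and a mean of 4206. How reads that fit both copies were counted is not known, so the absolute level of Rps16 is uncertain. The part of its copy in the low count was not tested. The Rps16 differences given below carry this limit.

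Across the 7 libraries most members moved little. The ratio of the highest to the lowest library had a median of 1.59, and 65 of 76 members stayed under 2-fold. Rps23, a protein of the decoding region, varied least (1.22-fold), followed by Rpl27 (1.23-fold) and Rpl5 (1.24-fold). Behind Rps16, the widest ranges were those of Rpl29 (2.75-fold), Rpl21 (2.61-fold), Rpl11 (2.53-fold) and Rpl39 (2.48-fold). P1 males held the highest value for 40 members, and 2-week males the lowest value for 40 members.

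Libraries also differed in how far single members departed from the rest. After removing each gene's mean and each library's median, the SD over the 76 members was 0.35 on the log2 scale for the library labelled P1 female and 0.30 for 12-week males. It was 0.14 in both P1 and 2-week males and 0.12 in 2-week females. In the library labelled P1 female 10 members lay more than 0.5 from the median of the members, while at 2 weeks no member did in either sex. Rpl21, Rpl29, Rplp2, Rpl36, Rpl19 and Rps16 had their largest positive departure in that library, and Rpl39, Rps14, Rps27 and Rpl35a their largest negative one.

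**Figure D2:**
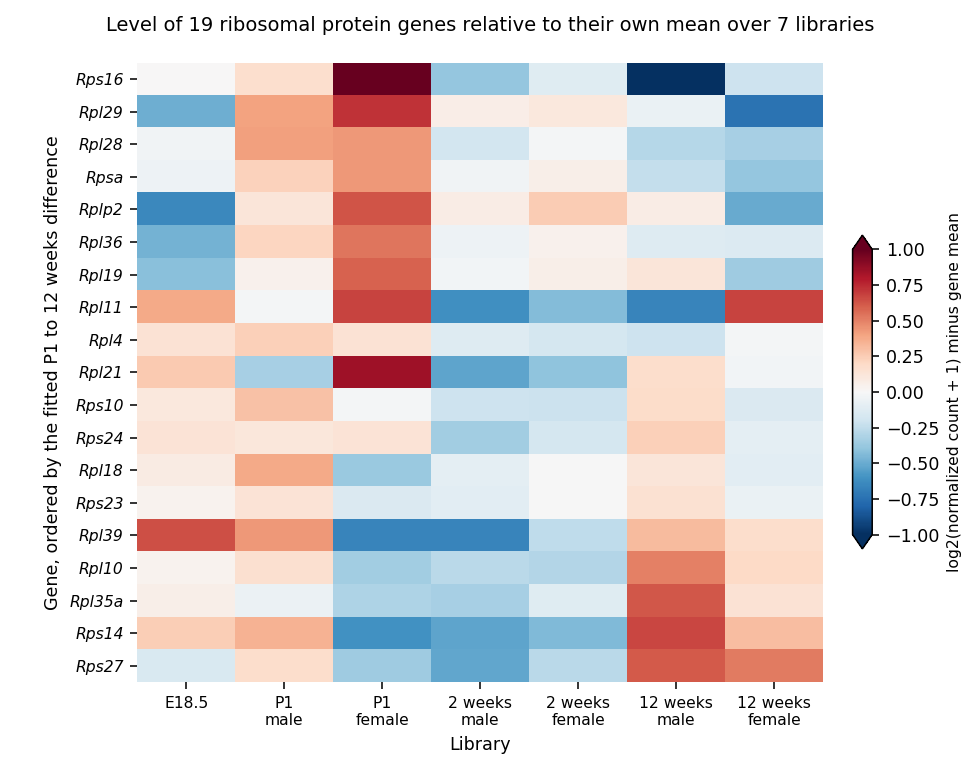
Each row is 1 of the 19 ribosomal protein genes picked by the rule for named members, ordered by the fitted difference from P1 to 12 weeks, and each column 1 library. Colour gives log2(normalized count + 1) minus the gene's mean over the 7 libraries (red higher, blue lower, limits at -1 and 1). The libraries at 2 weeks are mostly pale or blue, and single genes such as Rpl21, Rpl11 and Rps16 stand out in the library labelled P1 female.

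From P1 to 2 weeks, while pups are still suckling, all 76 members had a negative fitted log2 difference, and none passed the test. Their median was -0.31, with a range from -1.19 (Rps16) to -0.04 (Rpl35a), against a median of 0.00 over the 16720 genes tested. The small subunit median was -0.31 and the large subunit median -0.30. Of all genes tested, 10.5% were called lower and 5.89% higher at an adjusted p of 0.05 or less, and 49.7% had a negative fitted difference. Rpl28 came nearest with a difference of -0.52 ± 0.14 (SE) and an adjusted p of 0.0545, and 11 members had an unadjusted p under 0.05. On the reads recovered from the table, edgeR called 0 members and DESeq2 called 7, all lower. Of all 16720 genes they called 1872 and 1864 lower.

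The male and the female pair of libraries did not show this step alike. In males all 76 members were lower at 2 weeks than at P1 (50.4% of all genes), with a median of -0.48. From the library labelled P1 female to 2-week females 52 were lower (50.6% of all genes) and 24 higher, with a median of -0.14. So 52 members were lower in both pairs, against 37.7% of all genes, and 0 were higher in both, against 36.7%. The members' median, male minus female, was 0.21 at P1 (SD 0.42) and -0.10 at 2 weeks (SD 0.11). With 1 library per sex and age, a sex difference in this step cannot be told apart from other differences between the P1 libraries. Without P1 males the fitted median was -0.16 with 60 members lower, and without the library labelled P1 female it was -0.42 with 74 lower. With libraries scaled to equal totals 74 of 76 were lower and Rpl18 and Rpl35a were not, and with upper-quartile scaling all 76 were. With the latter 3 members passed the test, while 1897 of all 16737 genes were called lower. Over the same interval liver, muscle, kidney and pancreas markers had median log2 differences of -3.75, -5.88, -5.59 and -5.61, and adipocyte markers one of 5.31. The pancreas markers were high at P1 in males alone, with a summed normalized count of 5705 against 71.7 for the library labelled P1 female and 27.7 at E18.5. The part of these markers in the ribosomal protein values was not tested.

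From 2 weeks to 12 weeks 3 members rose and none fell. Of all genes tested, 5.4% were called higher and 9.89% lower, so the members' count was below that background. The median fitted difference was 0.20, against -0.03 over all genes, and 65 of 76 members were fitted higher (47.4% of all genes). In both sexes 45 members were higher at 12 weeks than at 2 weeks (34.9% of all genes) and 8 were lower (39.2% of all genes). The median was 0.32 in males and 0.11 in females.

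Rps27, a zinc finger protein of the small subunit (chr3:90212667-90213648), had 4182 and 4988 normalized counts in 2-week males and females and 9190.0 and 8593 in 12-week males and females. Both adult libraries lay above all 5 earlier ones, which included 5394 at E18.5, 6788 in P1 males and 4683 in the library labelled P1 female. The fitted difference from 2 weeks to 12 weeks was 0.96 ± 0.21 (SE; adjusted p = 0.0287, limma).

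Rps14, a protein of the small subunit platform whose loss underlies the anaemia of the 5q- syndrome, had 6095 at E18.5, 6541 in P1 males and 3375 in the library labelled P1 female. It then had 3560.0 and 3775 in 2-week males and females and 8149.8 and 6349 in 12-week males and females. The 12-week values lay above both 2-week values, while P1 males overlapped them. The difference from 2 weeks was 0.97 ± 0.25 (SE; adjusted p = 0.0447, limma).

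Rpl22, an RNA-binding protein on the surface of the large subunit near the exit tunnel (chr4:152324436-152334082), had 3502 at E18.5 and 3373 and 3603 in 2-week males and females. In 12-week males it had 6113 and in 12-week females 4736, both above the 2 P1 values of 4071 and 3568. The difference from 2 weeks was 0.63 ± 0.16 (SE; adjusted p = 0.0494, limma). Its paralog Rpl22l1, whose product can take its place in the ribosome, had 342, 252, 81.7, 122, 137, 197 and 240 in the 7 libraries in order of age, males first, and passed no test.

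Near the threshold were Rpl10, a late-joining protein of the large subunit core, with 0.64 ± 0.17 (SE; adjusted p = 0.0547), and Rpl35a, a Diamond-Blackfan anaemia gene, with 0.61 ± 0.19 (SE; adjusted p = 0.0818). All 3 calls were lost without a filter on low values, where 0 of all 27254 genes were called. They were also lost without the trend in the variance, where 552 of all genes were called higher. The members' median was 0.05 without 2-week males and 0.34 without 2-week females. Such fits leave 1 library at an age, so their calls are not compared here. With equal totals, which put the median of all genes at -0.20, the members' median was 0.03 and Rps27 alone passed. Of all 16732 genes 645 were called higher at this setting.

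From P1 to 12 weeks 1 member rose and 7 fell. Of all genes tested, 17.6% were called higher and 23.5% lower, so both counts were below the background. The median fitted difference was -0.13 (-0.03 over all genes), with 22 members higher and 54 lower (51.2% of all genes). In both sexes 29 members were lower (41.5% of all genes) and 12 higher (38.2% of all genes). With equal totals or upper-quartile scaling, which moved the median of all genes to -0.15 and -0.13, the calls were 0 higher and 10 lower, and 0 higher and 8 lower. Of all genes, 2359 were called higher and 4554 lower with equal totals, and 2337 and 4387 with upper-quartile scaling.

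Rpl28 (chr7:4792965-4794547), a large subunit protein, fell by 0.73 ± 0.14 (SE; adjusted p = 0.00847, limma). Its normalized counts were 6190 in P1 males, 6286 for the library labelled P1 female, 4108 and 4597 in 2-week males and females, and 3825 and 3705 in 12-week males and females. The P1 libraries lay above all others, E18.5 (4556) included.

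Rpl29 (chr9:106428889-106431568), a heparin-binding large subunit protein with 9 near-identical pseudogenes, fell by 0.97 ± 0.24 (SE; adjusted p = 0.0196, limma). Its values were 1745 at E18.5, 3247 and 4042 at P1, 2570.0 and 2639 at 2 weeks, and 2340.5 and 1469.7 at 12 weeks, males first. The E18.5 library, at 1745, was nearer to 12-week females than to either P1 library.

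Rpsa (chr9:120127766-120132369), which is also known as the laminin receptor, fell by 0.64 ± 0.18 (SE; adjusted p = 0.0285, limma). It had 17186 at E18.5, 20931 and 24062 at P1, 17385 and 18542 at 2 weeks, and 15103 and 13662 at 12 weeks, males first. The 12-week values lay below all 5 others.

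Rps26 (chr10:128624529-128626506), which lies at the mRNA exit and is a Diamond-Blackfan anaemia gene, fell by 0.50 ± 0.16 (SE; adjusted p = 0.0462, limma). It had 4161 at E18.5, 5194 and 4479 at P1, 3605 and 4008 at 2 weeks, and 3210 and 3625 at 12 weeks, males first. Both P1 values lay above both 12-week values.

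Rpl36 (chr17:56610094-56614246), of the large subunit, fell by 0.51 ± 0.15 (SE; adjusted p = 0.0387, limma), from 1208 and 1511 at P1 to 951 and 950.4 at 12 weeks, while E18.5 had 751. Rps16 (chr7:28350689-28352698) fell by 1.62 ± 0.34 (SE; adjusted p = 0.0106, limma). Rps27 rose by 0.66 ± 0.21 (SE; adjusted p = 0.0448, limma). These calls rest on the P1 libraries, and in the library labelled P1 female 10 members departed from the rest. Without that library the members' median was -0.26, and without P1 males it was 0.02, in place of -0.13. Each of these fits leaves 1 library at P1, so their calls are not compared here.

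**Figure D3:**
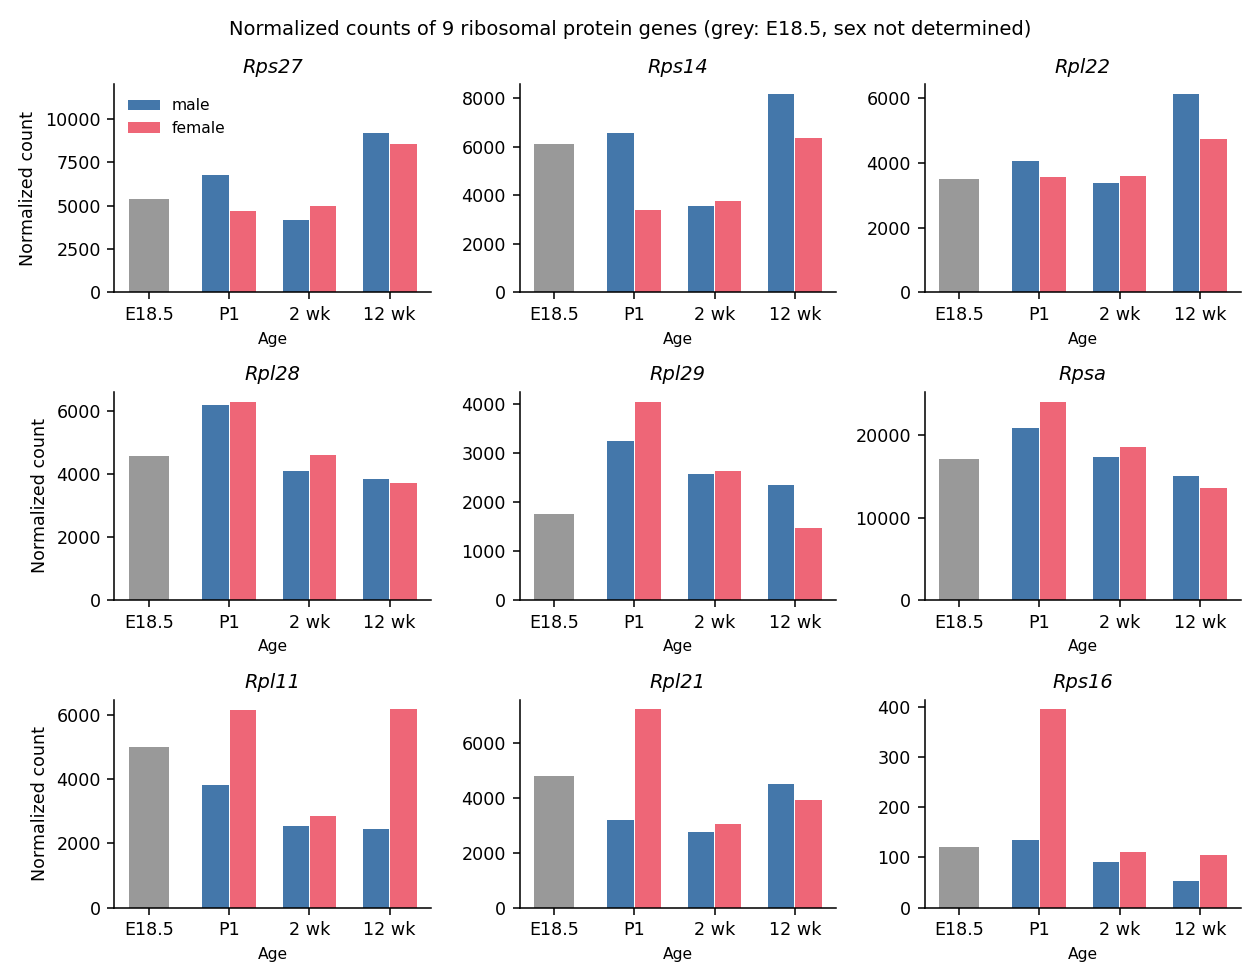
Normalized counts (y axis, each panel from 0 on its own scale) of 9 ribosomal protein genes by age (x axis), with E18.5 in grey, males in blue and females in red, 1 library per bar. Rps27, Rps14 and Rpl22 are highest at 12 weeks in males, Rpl28, Rpl29 and Rpsa are highest at P1, Rpl21 and Rps16 are highest in the library labelled P1 female, and Rpl11 is about equally high there and in 12-week females.

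Members were also followed by their role in the ribosome. The proteins that carry 5S rRNA, Rpl5 and Rpl11, also bind Mdm2 when ribosome assembly fails, and they parted here. Rpl5 was among the flattest members, from 8153 to 10089. Rpl11 had 5010 at E18.5, 3802 in P1 males, 6157 for the library labelled P1 female, 2523 and 2851 in 2-week males and females, 2437 in 12-week males and 6167 in 12-week females. The 2 high values of Rpl11, in 12-week females and in the library labelled P1 female, lay close together and far above 12-week males. Its fitted difference from P1 to 2 weeks was -0.85 ± 0.26 (SE; adjusted p = 0.0770, limma).

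The stalk that recruits elongation factors is built of Rplp0, Rplp1 and Rplp2. From E18.5 to P1 males all 3 were higher, by a median of 0.55 on the log2 scale, as were 68 of all 76 members. To the library labelled P1 female Rplp0 had -0.13, Rplp1 0.59 and Rplp2 1.28. Rplp2 had 1199 at E18.5, 2040 and 2907 at P1, 1976 and 2238 at 2 weeks and 1978 and 1320 at 12 weeks, males first. Its E18.5 library was the lowest and 12-week females came next. None of the 3 passed an age test.

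Of the 9 proteins around the peptide tunnel and its exit, 8 were fitted higher from 2 weeks to 12 weeks (median 0.22), near the 65 of all 76 members (median 0.20). Rpl22 passed the test. Rpl39, a very small protein lining the tunnel, had 2361 at E18.5, 2038 in P1 males, 951 for the library labelled P1 female, 954 and 1265 in 2-week males and females and 1874 and 1707 in 12-week males and females. The low P1 value lay beside the 2-week values and apart from P1 males. Its difference from 2 weeks to 12 weeks was 0.70 ± 0.33 (SE; adjusted p = 0.194, limma).

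The 5 proteins at the mRNA exit moved in both directions. Between P1 and 12 weeks Rpsa and Rps26 fell, and the group's median was -0.48, while Rps14 had a difference of 0.61 ± 0.25 (SE; adjusted p = 0.0878, limma). A list of 14 members mutated in Diamond-Blackfan anaemia, an inherited failure of red cell formation, did not hold Rps27, which has also been linked to the disease. Its genes had medians of -0.27, 0.21 and -0.07 in the 3 age comparisons, against -0.31, 0.20 and -0.13 over all 76. Of the 14, Rps26 passed a test, in the comparison of P1 with 12 weeks.

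At birth, from E18.5 to P1, only single libraries could be compared and no test was possible. In P1 males 68 members were higher than at E18.5 (52.7% of all genes) and 8 lower, with a median of 0.17 (0.03 over all genes). In the library labelled P1 female 35 were higher (53.7% of all genes) and 41 lower, with a median of -0.04 (0.04 over all genes). The SD over members was 0.22 in the first comparison and 0.49 in the second. Rpl29, Rplp2, Rpl36 and Rplp1 were at least 0.5465 higher on the log2 scale in both P1 libraries, and Rpl39 was lower in both (-0.21 and -1.31). Rpl21 and Rpl11 went opposite ways, at -0.60 and -0.40 in P1 males and 0.59 and 0.30 in the library labelled P1 female. Both comparisons share the E18.5 library.

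Between the sexes no member passed the test, by limma, edgeR or DESeq2, and 2 had an unadjusted p under 0.05. Of all 16720 genes 0.00598% passed. The fitted median was 0.12 higher in males (-0.01 over all genes), with 57 members higher in males (48.7% of all genes) and 19 lower. Without the library labelled P1 female the median was 0.01 with 42 higher.

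Single ages showed different signs. At P1 58 members were higher in males (47.6% of all genes) with a median of 0.21, at 2 weeks 13 were (48.9% of all genes) with a median of -0.10, and at 12 weeks 52 were (52.2% of all genes) with a median of 0.15. The 2 P1 libraries also differed in other markers: in males against the library labelled P1 female, summed normalized counts were 5705 and 71.7 for pancreas, 9452 and 2538 for kidney, and 79748 and 147130.0 for muscle. Those of adrenal cortex were 430391 and 258108, and those of chromaffin cells 47414 and 92484. Their part in the P1 difference was not tested. The SD over members was 0.42 for P1, 0.11 for 2 weeks and 0.35 for 12 weeks. No member differed by 1.5-fold or more at 2 weeks, while 14 did at P1 and 5 at 12 weeks. At P1 9.6% of all genes were 1.5-fold higher in males and 9.58% lower, at 2 weeks 2.76% and 7.31%, and at 12 weeks 12.8% and 9.63%.

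Rpl11, Rpl17, Rpl30 and Rps16 were among the members lower in males at all 3 ages (10.9% of all genes were), and Rpl10, Rps10, Rps25, Rps6 and Rps9 were higher at all 3 (11.2% of all genes were). Of these, Rps6 is the target of S6 kinase. Its log2 differences, male minus female, were 0.08, 0.04 and 0.38 from P1 to 12 weeks. For Rpl11 they were -0.70, -0.18 and -1.34. Rpl21 had the second largest difference at P1, at -1.18, with 3179 normalized counts in males and 7219 for the library labelled P1 female. It differed by -0.13 and 0.20 at the later ages. Rpl21 has 15 near-identical pseudogenes.

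**Figure D4:**
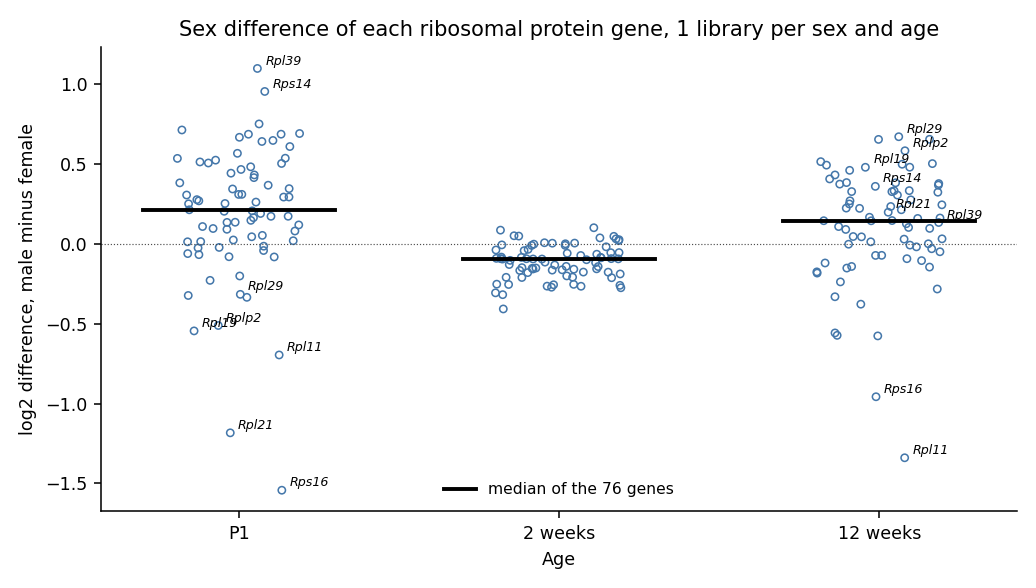
Log2 difference, male minus female (y axis), of each of the 76 ribosomal protein genes at P1, 2 weeks and 12 weeks (x axis), 1 point per gene and a black line at the median. Points are spread at P1 (SD 0.42) and 12 weeks (SD 0.35) and close together at 2 weeks (SD 0.11), and Rps16 and Rpl11 are low at P1 and 12 weeks.

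The members' values were also set against base composition. Over the 76 members, which share libraries and depth, Pearson's r between the GC content of the transcript and the fitted log2 difference was -0.0967 for the step from P1 to 2 weeks, -0.302 for 2 weeks to 12 weeks and -0.284 over the whole span. Over all genes with a GC value it was -0.0577, -0.103 and -0.0994. For the step from E18.5 to P1 males r was 0.384 over the members and 0.119 over all genes, and to the library labelled P1 female 0.245 and 0.114. From P1 to 12 weeks the median difference was -0.07 in the 26 members with the lowest GC, -0.15 in the 25 in the middle and -0.28 in the 25 with the highest. Small nucleolar RNAs, which guide rRNA modification, lie inside 29 members, and these had a median of 0.17 from 2 weeks to 12 weeks against 0.22 in the other 47.

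Among genes of the same machinery, ribosomal proteins outside the naming rule had the sign of the members at the first step. Rps3a1, Fau and Rack1 were each fitted lower from P1 to 2 weeks, and none of these passed a test. Paralogs, which replace a member in some tissues, were at lower levels. Their calls from P1 to 12 weeks stand beside 17.6% of all genes called higher and 23.5% called lower. Rps27l rose from P1 to 12 weeks by 0.65 ± 0.16 (SE; adjusted p = 0.0184, limma), from 773 and 648 to 1204 and 1027 normalized counts, as its parent Rps27 did. Rps4l fell by 1.24 ± 0.24 (SE; adjusted p = 0.00748, limma), and Rpl3l, the striated muscle form of Rpl3, fell from 27.8 and 47.5 to 1.40 and 0 (adjusted p = 0.0243, limma). Skeletal muscle markers fell with Rpl3l, and their part was not tested. Rpl10l, a testis form, had no read in any library, which allows up to 3 reads in each, and Rpl39l was under 2 normalized counts throughout.

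Mitochondrial ribosomal protein genes, taken by symbol alone (Mrps or Mrpl with a number), went the other way at the first step. Whether each product is part of that ribosome was not checked. From P1 to 2 weeks 75 of 77 were fitted higher, with a median of 0.32 against -0.31 for the cytosolic set, and 4 rose (Mrpl42, Mrps11, Mrps25 and Mrps36), a share near the 5.89% of all genes that did. Mrps36 rose by 0.86 ± 0.19 (SE; adjusted p = 0.0269, limma), from 226 in each P1 library to 378 and 446 in 2-week males and females. From 2 weeks to 12 weeks their median was -0.03 and Mrpl34 fell. Over the whole span 66 were fitted higher (median 0.31) and 11 rose, a share below the 17.6% of all genes that did. The highest of these was Mrps11 at 1.06 ± 0.17 (SE; adjusted p = 0.00374, limma). With equal totals and with upper-quartile scaling the first median was 0.37 and 0.25. The difference between the 2 sets of genes was not tested.

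**Figure D5:**
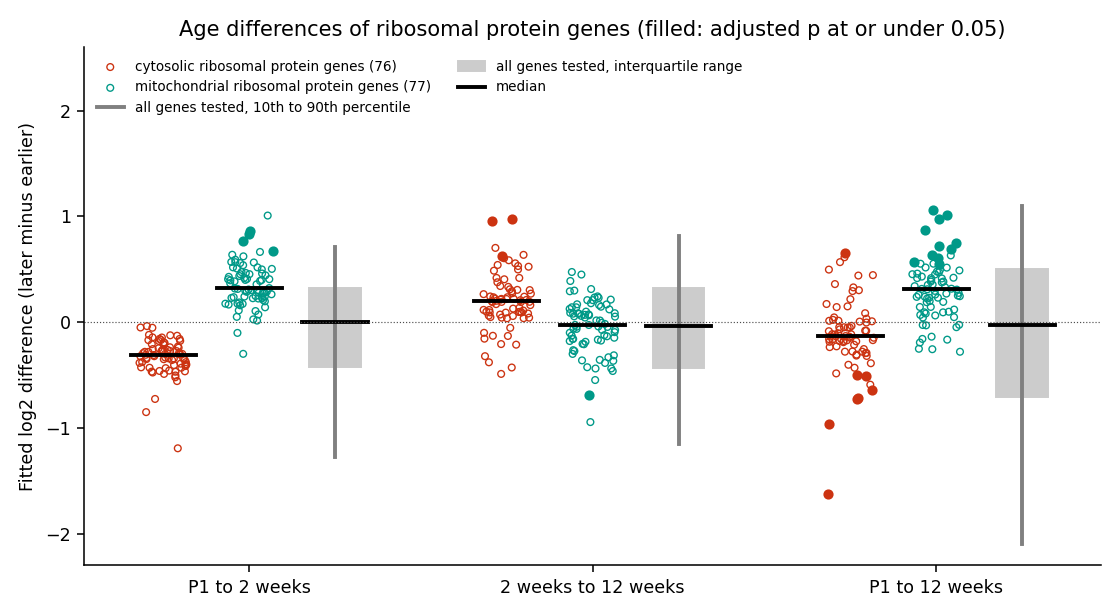
Fitted log2 differences (y axis, later minus earlier age) in the 3 age comparisons (x axis) for the 76 cytosolic (red) and 77 mitochondrial (green) ribosomal protein genes, with black lines at medians and filled points for adjusted p at or under 0.05. Grey boxes and lines give the interquartile range and the 10th to 90th percentile of all 16720 genes. From P1 to 2 weeks the 76 cytosolic points lie below 0 and 75 of 77 mitochondrial points above it.

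Other genes whose mRNAs carry a TOP motif had the sign of the members at the first step. All 16 on the list were fitted lower from P1 to 2 weeks (median -0.29), 15 with equal totals, and 3 fell (10.5% of all genes did): Hnrnpa1, which packages nuclear RNA, Pabpc1, the cytoplasmic poly(A)-binding protein, and Npm1, a nucleolar chaperone of ribosome assembly. Pabpc1 had 12712 at E18.5, 15363 and 18718 at P1, 8751 and 9742 at 2 weeks and 6692 and 5919 at 12 weeks, males first. It fell by 0.88 ± 0.18 (SE; adjusted p = 0.0210, limma) from P1 to 2 weeks and lay lower at each later age. From 2 weeks to 12 weeks 8 were fitted higher and 8 lower (median 0.00), against 65 and 11 of the members, and none passed. Between P1 and 12 weeks 5 of the 16 fell (those 3, Nap1l1 and Btf3; 23.5% of all genes did) and the median was -0.41. Eef1a1, the elongation factor that brings tRNA to the ribosome, stood far above every member, at 147363 to 192619, and passed no test.

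Genes that make ribosomes were followed as well. Of 24 ribosome assembly factors none passed from P1 to 2 weeks (median 0.00), and from P1 to 12 weeks 3 did (median -0.16). Of all genes tested, 16.4% and 41.2% passed in these comparisons, so both counts were below the background. From P1 to 12 weeks 17.6% of all genes were called higher and 23.5% lower, which is also the background for the polymerase I genes and growth regulators that follow. Between P1 and 12 weeks Ncl, which encodes nucleolin, and Gar1, of the box H/ACA particles that modify rRNA, fell by 0.74 ± 0.16 (SE) and 1.14 ± 0.25 (SE), and Gnl3 rose by 0.56 ± 0.16 (SE). Of 11 genes for RNA polymerase I and its factors, Ubtf fell by 0.58 ± 0.15 (SE) and Taf1a rose by 1.43 ± 0.25 (SE) from P1 to 12 weeks. Among 15 growth regulators Rps6kb1, which encodes S6 kinase 1, rose by 0.52 ± 0.15 (SE), while Mycn, Rps6kb2, Eif4ebp2 and Larp1 fell, Larp1 from 4521 and 4472 at P1 to 2879 and 3414 at 12 weeks. Cell cycle genes followed another course. From 2 weeks to 12 weeks all 14 fell (median -3.50), while 9.89% of all genes were called lower. In that interval 3 of the 76 ribosomal protein genes rose, a share below the 5.4% of all genes called higher. With equal totals the median of the 76 was 0.03, with 44 fitted higher and 32 lower.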

How the data were processed

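RNA from 7 pooled adrenal libraries was analysed. The authors deposited 1 table of normalized counts; in every library 100% of values were whole reads divided by 1 size factor (within 0.01 read), so the deposited signal is a read count scaled for depth, and the counts of reads were recovered from it. The submitters' processing notes name CASAVA 1.8.2, HISAT2 2.1.0, HTSeq 0.9.1, DESeq2 2.11.40.6 and mm10, with no role or order. Strand use, multiple mapping and annotation are not given in the sources used here.

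Genes with a mean of at least 10 (16720) were fitted on log2(normalized count + 1) with limma 3.58.1 (R 4.3.3), age plus sex, trend in eBayes, two-sided, Benjamini-Hochberg over all genes, threshold 0.05. This scale understates changes of low genes. Differences are later minus earlier or male minus female. Alternatives were other pseudocounts (0.1, 10), filters and scalings, no trend, edgeR 4.0.16 and DESeq2 1.42.0 on recovered reads, and each library left out in turn.

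Transcripts and pseudogenes came from GENCODE (GRCm38), and coordinates and promoters from RefSeq GRCm38.p6. Near-identical copies were found with blastn 2.17.0.

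The members and lists were chosen with earlier results of these data known. Named members were those with the highest or lowest mean or difference and the largest departures, members of role lists and, of each other list, the 2 highest and lowest. Rpl27, Rpl32, Rps20, Rpl5 and called genes of the lists beyond that rule were named after their values were seen. Some genes that these rules take are not reported here.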

Additional observations from a re-analysis of the deposited data

Results flagged for a closer look

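The members' median sex difference, male minus female on the log2 scale, changed sign with age: 0.21 at P1, -0.10 at 2 weeks and 0.15 at 12 weeks. The members' median step from E18.5 was 0.17 to P1 males and -0.038 to the library labelled P1 female. Of the members, 3 had sex differences of opposite sign at P1 and 12 weeks: Rpl19 with -0.54 and 0.48, Rpl29 with -0.32 and 0.67, and Rplp2 with -0.51 and 0.58. Each of these was picked out because 2 groups differed in direction, and with 1 library per group none of the differences was tested. The P1 values rest on the library labelled P1 female, which held Y-linked reads.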

How the results depend on the processing

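No paired analysis was possible because each group has 1 library and the labels give no replicate numbers. Calls among the 76 members depended on the setting. From P1 to 2 weeks (0 calls) there were 3 with upper-quartile scaling, 7 with DESeq2 and 0 to 9 when 1 library was left out. From 2 weeks to 12 weeks (3 calls) there was 1 with a pseudocount of 0.1, with equal totals, with upper-quartile scaling and with edgeR, 0 without a filter and without the trend, 5 with DESeq2, and 0 to 6 when 1 library was left out (5 without 12-week males, 6 without 12-week females). From P1 to 12 weeks (8 calls) there were 2 without a filter and 3 without the trend, all lower. At these settings 2974 and 3408 of all genes were called lower. There were 6 with edgeR, all lower, so Rps27 was not called, and 11 with DESeq2, 3 higher and 8 lower. Of all genes edgeR called 2908 higher and 3846 lower, and DESeq2 2867 and 3614. Calls without a P1 library are not compared for this step, as such fits leave 1 library at P1. With 1 library left out, the members' median ran from -0.43 to -0.16 for P1 to 2 weeks. It ran from 0.05 to 0.34 for 2 weeks to 12 weeks and from -0.26 to 0.02 for P1 to 12 weeks. The sex comparison kept 0 calls throughout. The cause was not tested.

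Shares of reads moved with the denominator. Without the most abundant member, Rpsa, they were 2.261, 2.518, 2.111, 1.878, 1.920, 2.117 and 1.853% in the 7 libraries in order of age, males first. Without mitochondrially encoded genes in the total they were 2.48, 2.80, 2.35, 2.09, 2.15, 2.38 and 2.13%.

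Of 435 values of single genes under these settings, 339 kept their direction and their side of the threshold, 70 were no longer past it, 14 were newly past it, and 12 changed sign, none of which had passed the test. With equal totals Rpl35a and Rpl18 from P1 to 2 weeks had 0.013 and 0.000305. With 1 library left out the range was -0.33 to 0.25 for Rpl35a, -0.39 to 0.29 for Rpl18 and -0.23 to 0.12 for Rps23 in that comparison. It was -0.92 to 0.064 for Rps16 and -0.84 to 0.085 for Rplp2 from 2 weeks to 12 weeks, and -0.66 to 0.034 for the sex difference of Rpl21. Leaving out a library of a pair assumes that its lone partner varies like the other groups.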
